A study of Homo sapiens with 12 samples.

Results

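The genes described here encode the proteins of the human cytosolic ribosome, measured by RNA sequencing in tumours treated with palbociclib or vehicle and in tumours left to recover after treatment. Members were the protein-coding human genes whose GENCODE 29 symbol follows the RPS or RPL naming of ribosomal proteins, with RPSA, RPLP0, RPLP1 and RPLP2, and with 10 or more counts in at least 3 files. Of 87 symbols that follow the naming, 83 met the count minimum, out of 58243 human gene rows and of 112389 human and mouse rows. The 83 are 32 genes of the small subunit and 51 of the large subunit. The other 4 symbols, the tissue-restricted paralogs RPL10L and RPL3L among them, never reached 10 counts. All 83 members had at least 10 counts in all 12 files, and all 83 were among the 18628 human genes that were tested.

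The 12 libraries came from xenografts of MCFDCIS, a human breast cell line that forms lesions like ductal carcinoma in situ. Cells were placed under the skin of athymic nude mice, a host that lacks a thymus and therefore mature T cells but keeps its other stromal, vascular and myeloid cells. After 2 weeks for the tumours to establish, animals received daily oral palbociclib at 50 mg per kg, which blocks CDK4 and CDK6 and so the entry into DNA replication, or vehicle, for 2 weeks. Tumours were taken at the end of treatment (3 palbociclib, 3 vehicle) or after a recovery period of unstated length (3 palbociclib, 3 vehicle). All groups share the same line and host strain. The labels do not say whether the 3 tumours of a group came from separate mice, so p-values describe only how these tumours vary, which may be technical in part.

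Each ribosome carries 1 copy of nearly every ribosomal protein, so growing cells make these proteins in matched amounts, and their mRNAs are among the most abundant in a cell. Most of these mRNAs begin with a cytosine and a run of pyrimidines, the 5′ terminal oligopyrimidine (TOP) tract. Through this tract the kinase complex mTORC1, acting in part through the binding protein LARP1, controls how strongly they are translated and how stable they are. Ribosome production is a large part of the cost of cell growth, and cells that stop dividing do not always stop growing. The labels give no purpose beyond the drug's effects, and mRNA level is not a measure of protein made.

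The start-site tract is shown first, because it is the sequence that most of these genes share and that some of their paralogs lack. In RefSeq's promoter table (GRCh38.p14), 67 of the 83 members had an entry. A C at an annotated start followed by 4 pyrimidines was found in 47 of these 67 genes (70.1%), against 1404 of 27305 genes in the whole table (5.14%). The letters CTTTC on the sense strand within 10 bases of a start were found in 29 of the 67 members (43.3%), against 4.05% of all genes, and such a match can lie inside the tract. A match is a description of the letters only. The windows below run from 35 bases before the annotated start through the first 15 transcribed bases, on the sense strand, with the pyrimidine run at or near the start in capitals.

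RPS6: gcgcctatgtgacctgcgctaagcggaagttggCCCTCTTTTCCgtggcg
RPLP0: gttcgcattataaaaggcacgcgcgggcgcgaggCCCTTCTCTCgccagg
RPS16: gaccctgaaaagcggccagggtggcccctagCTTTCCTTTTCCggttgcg
RPLP1: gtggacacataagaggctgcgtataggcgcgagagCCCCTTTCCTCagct
RPS27: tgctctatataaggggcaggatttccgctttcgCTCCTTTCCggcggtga
RPS27L: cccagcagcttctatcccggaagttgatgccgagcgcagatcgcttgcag
RPL22: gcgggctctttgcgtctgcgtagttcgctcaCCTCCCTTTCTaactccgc
RPL22L1: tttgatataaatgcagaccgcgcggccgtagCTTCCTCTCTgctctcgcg
RPL39: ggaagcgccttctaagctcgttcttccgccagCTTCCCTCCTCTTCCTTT
MKI67: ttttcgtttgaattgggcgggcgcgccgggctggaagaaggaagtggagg

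The windows of RPS6 (chr9:19380222-19380271), RPLP0 (chr12:120201097-120201146) and RPS16 (chr19:39435935-39435984) lie on the minus strand. RPLP1 (chr15:69452783-69452832) and RPS27 (chr1:153990727-153990776) are read from the plus strand. The remaining windows, RPS27L (chr15:63157463-63157512), RPL22 (chr1:6199581-6199630), RPL22L1 (chr3:170870181-170870230), RPL39 (chrX:119791616-119791665) and MKI67 (chr10:128126409-128126458), are on the minus strand. RPS27 has a tract and its paralog RPS27L has none, whereas RPL22 and its paralog RPL22L1 both have one. MKI67, the gene of the proliferation marker Ki-67, is shown as a gene of dividing cells without a tract. RPL39L, the paralog of RPL39, is not shown.

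Counts assigned to genes ranged from 8004903 to 15716211 per library, of which 14.2% to 25.4% were assigned to mouse genes, highest in palbociclib end-of-treatment library 3. All 9 epithelial and basal markers of the line were present in every library, among them KRT5, KRT14 and EPCAM. Human rows of 18 genes of immune, endothelial, stromal and fat cells were searched. ADIPOQ, CD3E, FABP4, LYZ and CD68 had at most 2 counts in any library, and PECAM1 and COL3A1 had 347 or more. Other genes of the same cell types differed from these. The endothelial genes KDR and CDH5 had 131 to 539 and 0 to 6 counts. The stromal genes COL1A2, COL1A1 and PDGFRB had 3 to 340, 31 to 71 and 6 to 54. The immune genes PTPRC, CSF1R and S100A8 had 0 to 8, 35 to 173 and 49 to 318. The summed level of the 18 genes is given in CPM (counts scaled to a common library total). It was 311.3 to 423.1 in palbociclib and 283.5 to 401.3 in vehicle tumours at the end of treatment. After recovery it was 266.7 to 348.7 in palbociclib and 230.7 to 313.3 in vehicle tumours. RGS5 has 2 rows, both in this sum, so the 18 genes held 19 rows. None of the 12 rows that were tested passed in any comparison, and the part of these genes in the results was not tested. Some libraries stood apart. The mitochondrial share of human counts was 5.32% and 11.2% for vehicle end-of-treatment libraries 2 and 3, against 0.674% to 2.64% in the other 10. The same 2 libraries had the highest shares of counts on rows without a gene name, at 61.9% and 69.1%, against at most 57.3% elsewhere. Vehicle end-of-treatment library 3 also had the fewest human counts, 6613880. In vehicle recovery library 2 the share of counts on rows without a gene name was 37.0%, the lowest, and its scaling factor of 0.858 was the lowest of the 12. Where leaving them out changed the sign of a median, or the call or direction of a printed gene value, both values are given. Other fold changes can differ in size without them and are not given again. Leaving out vehicle end-of-treatment libraries 2 and 3 together leaves 1 library in that group.

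Genes of dividing cells were lower under palbociclib at the end of treatment. MKI67 was at 37.7, 56.2 and 28.9 CPM in palbociclib tumours at the end of treatment, against 185.5, 272.3 and 200.4 CPM in vehicle tumours. After recovery it was at 178.6, 186.9 and 184.6 CPM in palbociclib tumours, against 179.0, 243.8 and 248.0 CPM in vehicle tumours. The groups were apart at the end of treatment and overlapped after recovery. MKI67 fell by 2.42 ± 0.23 on the log2 scale at the end of treatment (SE, edgeR's quasi-likelihood test, adjusted p = 9.2e-05). TOP2A, CCNB1 and E2F1, which act in chromosome separation, mitotic entry and S-phase entry, also fell, with log2 fold changes of -2.23, -1.87 and -1.27, and the cyclin gene CCND1 rose by 0.79 (edgeR adjusted p = 0.00056, 0.00335, 0.0219 and 0.002). With vehicle end-of-treatment libraries 2 and 3 left out CCND1 was at 0.87 and E2F1 at -1.65, and neither passed (edgeR adjusted p = 0.093 and 0.0544). E2F1 also did not pass without vehicle library 1 or without palbociclib library 1 or 3, at -1.43 to -0.99 (edgeR adjusted p between 0.0543 and 0.1206), or at -1.05 with the mouse share as a covariate (edgeR adjusted p = 0.1675). From the end of treatment to recovery in palbociclib tumours MKI67 rose by 2.17 ± 0.22 (edgeR adjusted p = 0.000166).

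The summed share of the ribosomal protein mRNAs ran from 4.69% to 6.58% of human counts over the 12 libraries. Together the 83 genes took 6.11%, 6.58% and 5.86% of human counts in palbociclib tumours at the end of treatment, against 6.37%, 4.83% and 4.69% in vehicle tumours. After recovery they took 5.10%, 5.67% and 4.83% in palbociclib tumours, against 4.90%, 5.07% and 5.08% in vehicle tumours. The group means were 6.18% ± 0.368 in palbociclib and 5.30% ± 0.934 in vehicle tumours at the end of treatment, and 5.20% ± 0.430 in palbociclib and 5.02% ± 0.0975 in vehicle tumours after recovery (SD, n = 3 each). At the end of treatment vehicle library 1 lay among the palbociclib libraries, and the other two vehicle libraries lay below all of them. These are the 2 vehicle libraries with the high mitochondrial share; with mitochondrial genes left out of the total, the 3 palbociclib values were 6.17%, 6.65% and 5.99%, and the 3 vehicle values 6.46%, 5.10% and 5.28%. With those 2 vehicle libraries left out, the difference in share, palbociclib mean minus vehicle library 1, was -0.191 percentage points. A share of bulk RNA cannot tell fewer cells of a type from less RNA per cell.

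**Figure D1:**
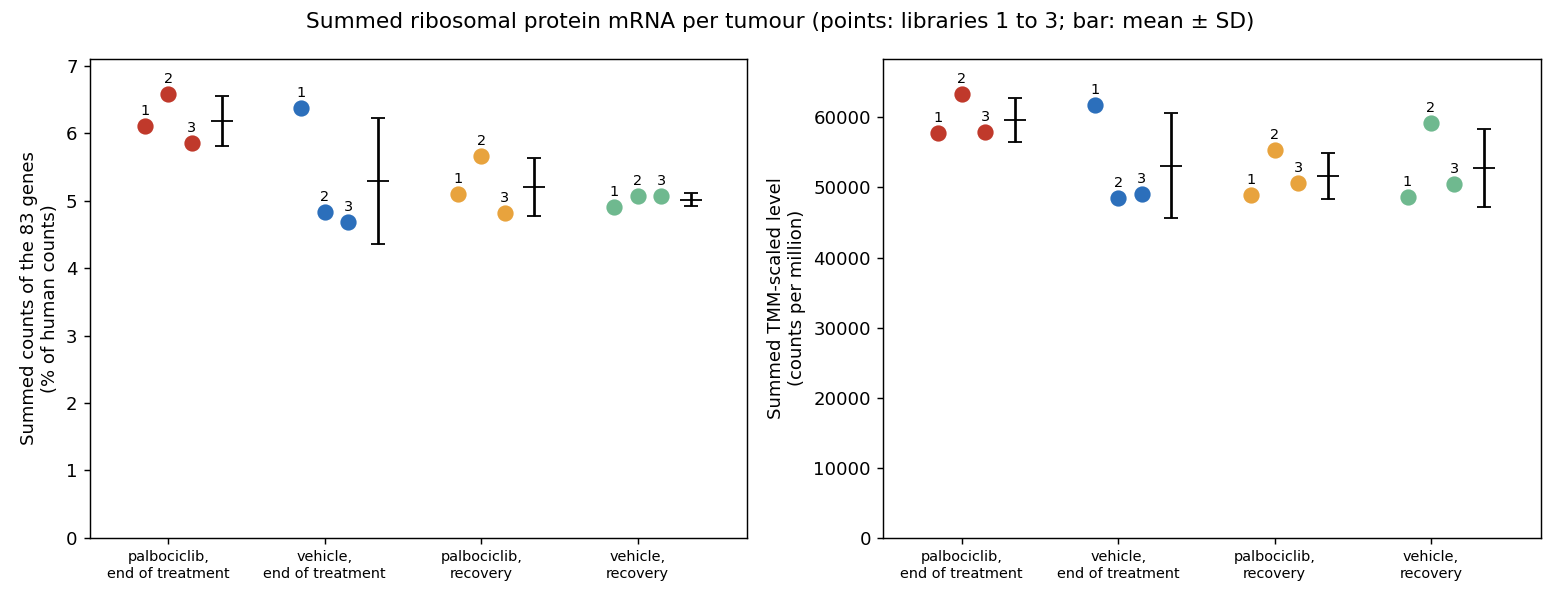
Summed counts of the 83 genes as a percentage of human counts (left) and as the sum of their scaled levels in CPM (right), for each library, with the mean and SD of each group beside the points. The palbociclib libraries at the end of treatment sit between 5.86% and 6.58%, vehicle library 1 of that stage sits among them at 6.37%, and the scaled sum of vehicle recovery library 2 is 59162 CPM although its share is 5.07%.

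Levels differed far more between members than between groups. Per kilobase of the principal transcripts, RPS27 had the highest mean over the 12 libraries, at 2449 CPM per kilobase, followed by RPL13A at 2037, and RPS18 and RPL12 were also high, at 1789 and 1776. RPS27 and RPS18 are small-subunit proteins, and RPL13A is a large-subunit protein that also acts outside the ribosome in control of inflammatory mRNAs. The median member was at 575.1 CPM per kilobase. At the low end were RPS10 at 4.57, RPL17 at 8.82, RPS27L at 9.32, RPS23 at 13.1 and RPL36A at 19.7 CPM per kilobase. The lengths used for RPS27L and RPS23 are long, at 6434 and 3437 bases, and these 2 genes averaged 59.9 and 45.0 CPM. RPS10, RPL17 and RPL36A are core proteins of which each ribosome needs a copy, yet their rows held 20 to 45, 39 to 92 and 46 to 126 counts per library. Each of these 3 genes is overlapped on its own strand by a readthrough gene (RPS10-NUDT3, RPL17-C18orf32 and RPL36A-HNRNPH2), whose row was at 0 in all 12 libraries. The way reads in such overlaps were assigned was not given in the sources used here, so the levels of these 3 genes are uncertain.

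The balance between the subunits was nearly fixed. Small-subunit genes gave 37.7% ± 0.164 of member counts in palbociclib and 37.7% ± 0.0929 in vehicle tumours at the end of treatment, and 37.7% ± 0.0688 in palbociclib and 37.7% ± 0.0799 in vehicle tumours after recovery (SD, n = 3 each). Over all 12 libraries this share ran from 37.5% to 37.8%. Processed pseudogenes, near-identical copies that can take reads from their parents, had 1131 rows and held between 0.583% and 0.982% of the combined counts of members and pseudogenes.

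The first comparison asked whether 2 weeks of palbociclib changed these mRNAs. In edgeR's quasi-likelihood fit, at an adjusted p under 0.05 over all genes, 0 of the 83 members passed, where 1.84% of all 18628 genes passed, 26 higher and 317 lower. At an unadjusted p under 0.05 there were 5 members, 4 higher and 1 lower, where 9.86% of all genes were. Of all 18628 genes, 593 were higher and 1243 lower at that p. DESeq2 and limma-voom called no member, against 530 and 302 of all genes. The median log2 fold change of the members was 0.14, with 77 positive and 6 negative and quartiles of 0.10 and 0.20, against a median of 0.00 for all genes. The 95% interval lay within 2-fold for 81 of the 83 members, so a doubling or halving was outside the interval for nearly all of them. It did so for 64.8% of all genes tested. The median SE was 0.13 for members and 0.23 for all genes, so these shares also differ in how precisely the genes were measured. The size and sign of this tilt depended on which vehicle libraries were kept. With vehicle libraries 2 and 3 left out, which leaves 1 vehicle library at this stage, the median was -0.06. It was 0.09 without vehicle library 2, 0.11 without vehicle library 3 and 0.27 without vehicle library 1. With the share of counts on unnamed rows as a covariate it was 0.04, with 54 positive and 29 negative. That share was highest in vehicle libraries 2 and 3. The count of members at an unadjusted p under 0.05 ran from 2 to 33 over the 18 alternatives, highest without vehicle library 1. The share of all genes at that p was not computed in the alternatives. All 3 palbociclib libraries lay above all 3 vehicle libraries for 7 members (RPL14, RPL23, RPL29, RPL34, RPS16, RPS27L and RPS4X), where 9.39% of all genes did so, and below them for 1 member, RPL39L, where 11.3% of all genes did so.

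RPS27L, a p53-inducible paralog of the small-subunit gene RPS27, had 65.7, 79.2 and 67.7 CPM in palbociclib tumours, against 56.9, 55.0 and 54.4 CPM in vehicle tumours at the end of treatment. The groups did not overlap. The log2 fold change was 0.35 ± 0.11 (SE, 95% interval 0.13 to 0.58, edgeR adjusted p = 0.153), which did not pass. It passed when vehicle recovery library 2, which is not in this comparison but shares the estimate of the spread, was left out, at a fold change of 0.36 (edgeR adjusted p = 0.0471). In that fit 748 of 19343 genes passed, against 343 of 18628 with all libraries.

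RPL39L, a paralog of RPL39 best known for its expression in testis, went the other way. It had 12.9, 15.9 and 11.8 CPM in palbociclib tumours, against 21.6, 19.8 and 19.8 CPM in vehicle tumours. All 3 palbociclib libraries were below all 3 vehicle libraries. The log2 fold change was -0.59 ± 0.19 (SE, 95% interval -1.01 to -0.18, edgeR adjusted p = 0.20). Without vehicle recovery library 2 it passed at -0.60 (edgeR adjusted p = 0.0154), and with only these 2 groups in the fit it passed at edgeR adjusted p = 0.0334. Over all genes 748 of 19343 and 689 of 17407 passed in these fits, against 343 of 18628 in the main fit.

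RPS16, a small-subunit protein, had the highest fold change of any member, and it came from 1 library. RPS16 was at 274.4, 272.4 and 559.8 CPM in palbociclib tumours, against 238.1, 230.0 and 231.9 CPM in vehicle tumours. Its log2 fold change, 0.66 ± 0.40 (SE, edgeR adjusted p = 0.688), was 0.24 without palbociclib library 3, which has the highest mouse share. The other members at the top and bottom were RPL3, at 0.32, RPL23A, at -0.10, and RPL26L1, at -0.09, none of which passed. RPL34, a large-subunit protein chosen after its values were seen, had 445.2, 465.0 and 438.4 CPM in palbociclib tumours, against 404.6, 344.7 and 341.1 CPM in vehicle tumours, without overlap, and its fold change of 0.31 ± 0.11 did not pass (SE, edgeR adjusted p = 0.291).

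None of the members named for their known roles passed, and their fold changes lay between 0.05 and 0.24. RPS6, the substrate of the S6 kinases downstream of mTORC1, had 2428, 2708 and 2287 CPM in palbociclib tumours, against 2318, 1976 and 2026 CPM in vehicle tumours. The groups overlapped, and the log2 fold change was 0.23 ± 0.13 (SE, 95% interval -0.04 to 0.51). RPL5 and RPL11, which with 5S RNA bind the p53 regulator MDM2, were at 0.13 ± 0.12 and 0.17 ± 0.12. RPLP0, a stalk protein often used as a reference gene, was at 0.07 ± 0.14, and RPSA, also known as the laminin receptor, at 0.05 ± 0.14. RPS3 was at 0.14, RPS19, a gene mutated in Diamond-Blackfan anaemia, at 0.10, RPL10 at 0.08 and RPS4X, one of the 7 members without overlap, at 0.24. Of the most abundant members per kilobase, RPS27, RPL13A, RPS18 and RPL12 lay between 0.14 and 0.24.

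**Figure D2:**
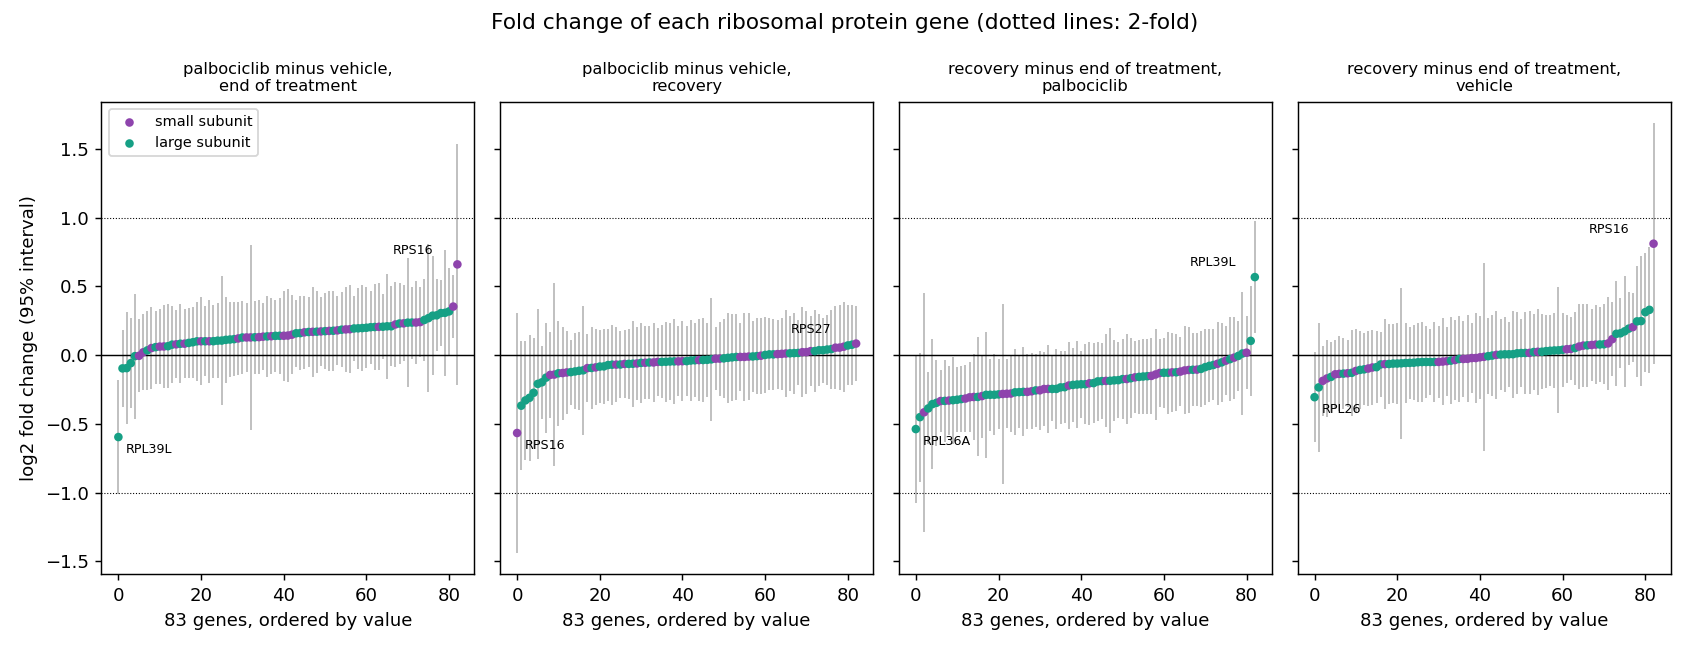
Log2 fold change of each of the 83 genes with its 95% interval, ordered within each panel, for palbociclib minus vehicle at both stages and recovery minus end of treatment in each treatment. Most points at the end of treatment lie just above 0 and most of the palbociclib release values lie just below it, with RPL39L at -0.59 and 0.57 on the opposite side of most other members.

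The second comparison asked what remained after recovery. Again 0 of 83 members passed by edgeR, where 0.00537% of all genes passed. No member was at an unadjusted p under 0.05, where 8.65% of all genes were, and DESeq2 and limma-voom called no member, against 20 and 0 of all genes. The median was -0.04, with 60 of 83 negative, against 0.00 for all genes, and 82 of 83 intervals lay within 2-fold. The sign of this median was not stable: without vehicle recovery library 2 it was 0.05, with 73 positive and 10 negative, with upper-quartile factors 0.01 and with the unnamed-row covariate 0.04. It was -0.09 without vehicle recovery library 1, -0.07 without vehicle recovery library 3, -0.09 without palbociclib recovery library 2 and -0.0029 without palbociclib recovery library 1. The lowest members were RPS16 at -0.57 ± 0.40, RPL22L1 at -0.37 ± 0.22 and RPL28, a large-subunit protein, at -0.33 ± 0.20. In vehicle recovery library 2 these were at 716.1, 114.3 and 424.4 CPM, above every other library of either recovery group. Without that library RPS16 was at 0.11, RPL22L1 at -0.06 and RPL28 at -0.02. The highest were RPS27 at 0.08, RPL31 at 0.08 and RPL13A at 0.07.

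The difference between these effects was tested directly, as the palbociclib effect after recovery minus that at the end of treatment. No member passed by edgeR, where 0.22% of all genes passed, all of them higher. DESeq2 and limma-voom called no member, against 104 and 51 of all genes, and 2 members were at an unadjusted p under 0.05, where 5.23% of all genes were. The median was -0.18, with 80 of 83 negative, against 0.01 for all genes. It was -0.10 without vehicle recovery library 2 and -0.31 without vehicle end-of-treatment library 1. RPS16 at -1.23 ± 0.56, RPLP1, a stalk protein, at -0.62 ± 0.30 and RPL28 at -0.62 ± 0.29 were lowest. Without vehicle recovery library 2 they were at -0.55, -0.26 and -0.31. RPL39L at 0.32 ± 0.27, RPL26 at 0.04 ± 0.22 and RPL19 at 0.01 ± 0.19 were highest. The median was 0.03 with vehicle end-of-treatment libraries 2 and 3 left out and 0.02 with the unnamed-row covariate. For MKI67 the same difference was 2.14 ± 0.31 (SE, edgeR adjusted p = 0.0118). It did not pass at 1.89 with those 2 libraries left out, at 2.08 without palbociclib end-of-treatment library 1 or at 2.10 with the unnamed-row covariate (edgeR adjusted p = 0.2051, 0.0573 and 0.0511).

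The third comparison set recovered against end-of-treatment tumours within the palbociclib arm, and does not use the vehicle libraries that stood apart except in the shared estimate of the spread. It shares its end-of-treatment tumours with the first comparison, so the opposite signs of the 2 are not independent. Members were mostly lower after recovery, by a small amount. The median log2 fold change was -0.21, with 79 of 83 negative, against -0.01 for all genes. No member passed by edgeR, where 2.82% of all genes passed, 439 higher and 87 lower. At an unadjusted p under 0.05 there were 18 members, 17 lower and 1 higher, where 14.4% of all genes were. Of all 18628 genes, 1032 were lower and 1645 higher at that p. DESeq2 and limma-voom called no member, against 824 and 504 of all genes. All 3 recovered libraries lay below all 3 end-of-treatment libraries for 47 members, where 14.2% of all genes did so, and above them for 1 member, where 14.9% did so. Members share a library, so 1 shift in scale moves all of them together. The interval lay within 2-fold for 81 of 83. In all 17 alternative settings the median stayed below 0, between -0.28 and -0.17. The lowest came with upper-quartile factors, where the median of all genes was -0.08. With the unnamed-row covariate the median was -0.22 here and also -0.22 over time in vehicle tumours, with 79 negative in each. The count of members at an unadjusted p under 0.05 ran from 4 to 44 over these settings, highest with upper-quartile factors. The share of all genes at that p was not computed there.

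RPL22, an RNA-binding large-subunit protein, had 272.3, 320.4 and 280.8 CPM in recovered palbociclib tumours, against 342.9, 403.7 and 395.3 CPM at the end of treatment. The groups did not overlap. The log2 fold change was -0.39 ± 0.12 (SE, 95% interval -0.65 to -0.13, edgeR adjusted p = 0.135). RPS27L had 51.4, 58.9 and 58.5 CPM after recovery, against 65.7, 79.2 and 67.7 CPM at the end of treatment, a change of -0.33 ± 0.11 (edgeR adjusted p = 0.14). RPL39L had 19.2, 19.1 and 21.8 CPM after recovery, against 12.9, 15.9 and 11.8 CPM at the end of treatment, and was the only member whose recovered libraries all lay higher. Its change was 0.57 ± 0.19 (SE, 95% interval 0.16 to 0.98, edgeR adjusted p = 0.164). Without vehicle recovery library 2 these 3 genes and RPL14, a large-subunit protein, passed, at edgeR adjusted p between 0.0121 and 0.0413. In that fit 1425 of 19343 genes passed, against 526 of 18628 with all libraries.

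RPL36A, at -0.54 ± 0.25, RPL39, at -0.45 ± 0.22, and RPS16, at -0.42 ± 0.40, had the lowest values. RPL39L, RPL26L1, at 0.10 ± 0.19, and RPS15, at 0.02 ± 0.12 (-0.05 with upper-quartile factors), had the highest. RPL39, a small protein near the exit tunnel, had 98.6, 113.7 and 104.8 CPM after recovery, against 145.6, 156.5 and 131.1 CPM at the end of treatment, and the groups did not overlap. RPS16 was at 0.02 without palbociclib end-of-treatment library 3. Of the members named for their roles, RPS4X was at -0.31, RPL11 at -0.28, RPS6 at -0.26 and RPL5 at -0.26, while RPLP0 was at -0.03 and RPSA at -0.02. RPS3 was at -0.19, RPS19 at -0.11 and RPL10 at -0.10. RPS18, RPL12, RPL13A and RPS27, among the most abundant members per kilobase, lay between -0.30 and -0.15.

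Vehicle tumours were compared over the same period. No member passed by edgeR, where 0% of all genes passed, although 2687 of 18628 genes were at an unadjusted p under 0.05. No member was at an unadjusted p under 0.05, and for members DESeq2 and limma-voom called none; over all genes DESeq2 called 83 and limma-voom 0. The median of the members was -0.01, with 39 positive and 44 negative, against 0.00 for all genes. It was 0.12 without vehicle end-of-treatment library 1 and -0.21 with libraries 2 and 3 of that group left out. With the unnamed-row covariate the median was -0.22, with 79 negative. With upper-quartile factors it was -0.11, with 72 negative, against -0.095 for all genes. RPS16 at 0.81 ± 0.40, RPLP1 at 0.33 ± 0.21 and RPL28 at 0.31 ± 0.20 were highest, and RPL26 at -0.31 ± 0.15, RPL39 at -0.23 ± 0.22 and RPS24 at -0.19 ± 0.12 lowest. RPLP1 had 633.8, 1163 and 617.9 CPM after recovery, against 732.5, 611.1 and 577.2 CPM at the end of treatment. Its level in vehicle recovery library 2 was above all other libraries, and without that library its change was -0.03 and that of RPS16 0.13.

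**Figure D3:**
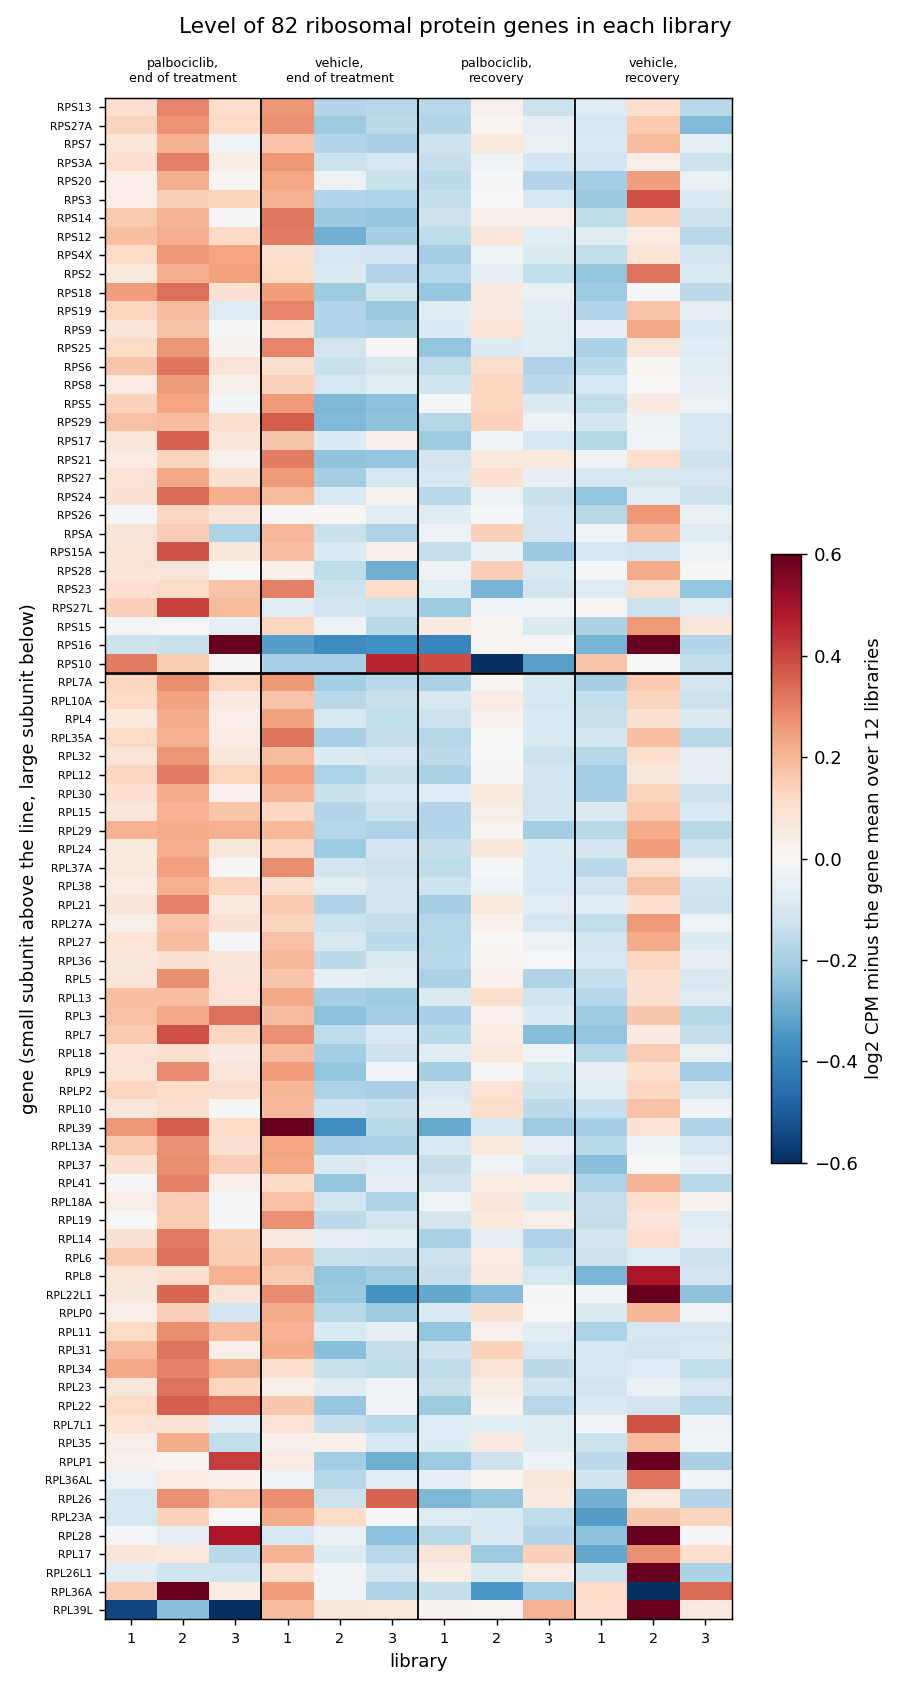
Level of 82 of the 83 genes in each of the 12 libraries, as log2 CPM minus the gene's mean over all libraries, with small-subunit genes above the line and large-subunit genes below. Most rows are higher in the 3 palbociclib end-of-treatment libraries, in vehicle end-of-treatment library 1 and in vehicle recovery library 2, while RPS16, RPS10, RPL36A and RPL39L depart from it.

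Members followed each other from library to library. The correlation of each member's log2 level with the mean of the other members over the 12 libraries had a median of 0.88, as a description over libraries that share depth and scaling. It was 0.99 for the closest member, and -0.13 for RPL39L, -0.11 for RPS10 and 0.19 for RPL36A, of which RPS10 and RPL36A rest on few counts. RPS16 was at 0.43. In palbociclib end-of-treatment library 3, RPS16, RPLP1 and RPL28 were at 559.8, 943.8 and 377.0 CPM, and in vehicle recovery library 2 at 716.1, 1163 and 424.4 CPM. In the other 10 libraries they ran no higher than 302.6, 732.5 and 266.9 CPM. The part played by mouse reads, whose share was 25.4% in the first of these libraries and 16.7% in the second, was not tested.

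Paralog pairs were compared as the log2 ratio of the paralog's counts to the parent's within a library, which does not depend on library scaling. Over 6 pairs and 4 comparisons, 24 exact two-sided permutation tests were run, in which 3 against 3 cannot give a p below 0.1, so none could pass. RPL39L over RPL39 was at -3.49, -3.29 and -3.47 in palbociclib tumours, against -3.20, -2.24 and -2.46 in vehicle tumours at the end of treatment. The groups did not overlap, and the difference was -0.79 (exact permutation p = 0.1, adjusted p = 0.436). After recovery from palbociclib the ratio was -2.36, -2.57 and -2.26, a difference of 1.02 from the end of treatment with no overlap (exact permutation p = 0.1, adjusted p = 0.436). Neither gene passed alone. With 1 library left out at a time the difference ran from -1.07 to -0.59 at the end of treatment and from 0.96 to 1.11 for the release. At the end of treatment vehicle library 1, at -3.20, lay close to palbociclib library 2, at -3.29. Vehicle libraries 2 and 3, at -2.24 and -2.46, are those with the high mitochondrial share. The difference with both left out was not computed.

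RPS27L over RPS27 was at -3.82, -3.69 and -3.78 in palbociclib tumours, against -4.20, -3.79 and -3.90 in vehicle tumours at the end of treatment, with overlap (difference 0.20, exact permutation p = 0.2). After recovery it was at -3.99, -3.99 and -3.85 in palbociclib tumours, a difference of -0.18 from the end of treatment without overlap (exact permutation p = 0.1, adjusted p = 0.436). RPL22L1 over RPL22 averaged -2.22 ± 0.127 in palbociclib and -2.19 ± 0.240 in vehicle tumours at the end of treatment (SD, n = 3 each), and the groups overlapped. RPL36AL over RPL36A was higher by 0.51 after recovery than at the end of treatment in palbociclib tumours without overlap, on the few counts of RPL36A. RPL7L1 over RPL7 was higher by 0.31 after recovery than at the end of treatment in vehicle tumours without overlap. RPL26L1 over RPL26 overlapped in all 4 comparisons.

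Taken as single genes, several paralogs and parents stood at the ends of the range. RPL39L was the lowest member at the end of treatment and the highest for the release, RPS27L was second to RPS16 at the end of treatment, and RPL36A, RPL39 and RPL22 were among the lowest for the release, with the values given above. At the end of treatment the log2 fold changes of the others were 0.14 for RPS27, 0.11 for RPL39, 0.29 for RPL22, 0.24 for RPL22L1, 0.21 for RPL7, 0.10 for RPL7L1, -0.06 for RPL26, 0.27 for RPL36A and 0.10 for RPL36AL, none of which passed. For the release from palbociclib they were -0.15 for RPS27, -0.36 for RPL22L1, -0.35 for RPL7, -0.11 for RPL7L1, -0.27 for RPL26 and -0.01 for RPL36AL, and again none passed. The least abundant members with no paralog pair, RPS10, RPL17 and RPS23, were at 0.13, -0.01 and 0.02 at the end of treatment and at -0.28, 0.01 and -0.28 for the release.

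**Figure D4:**
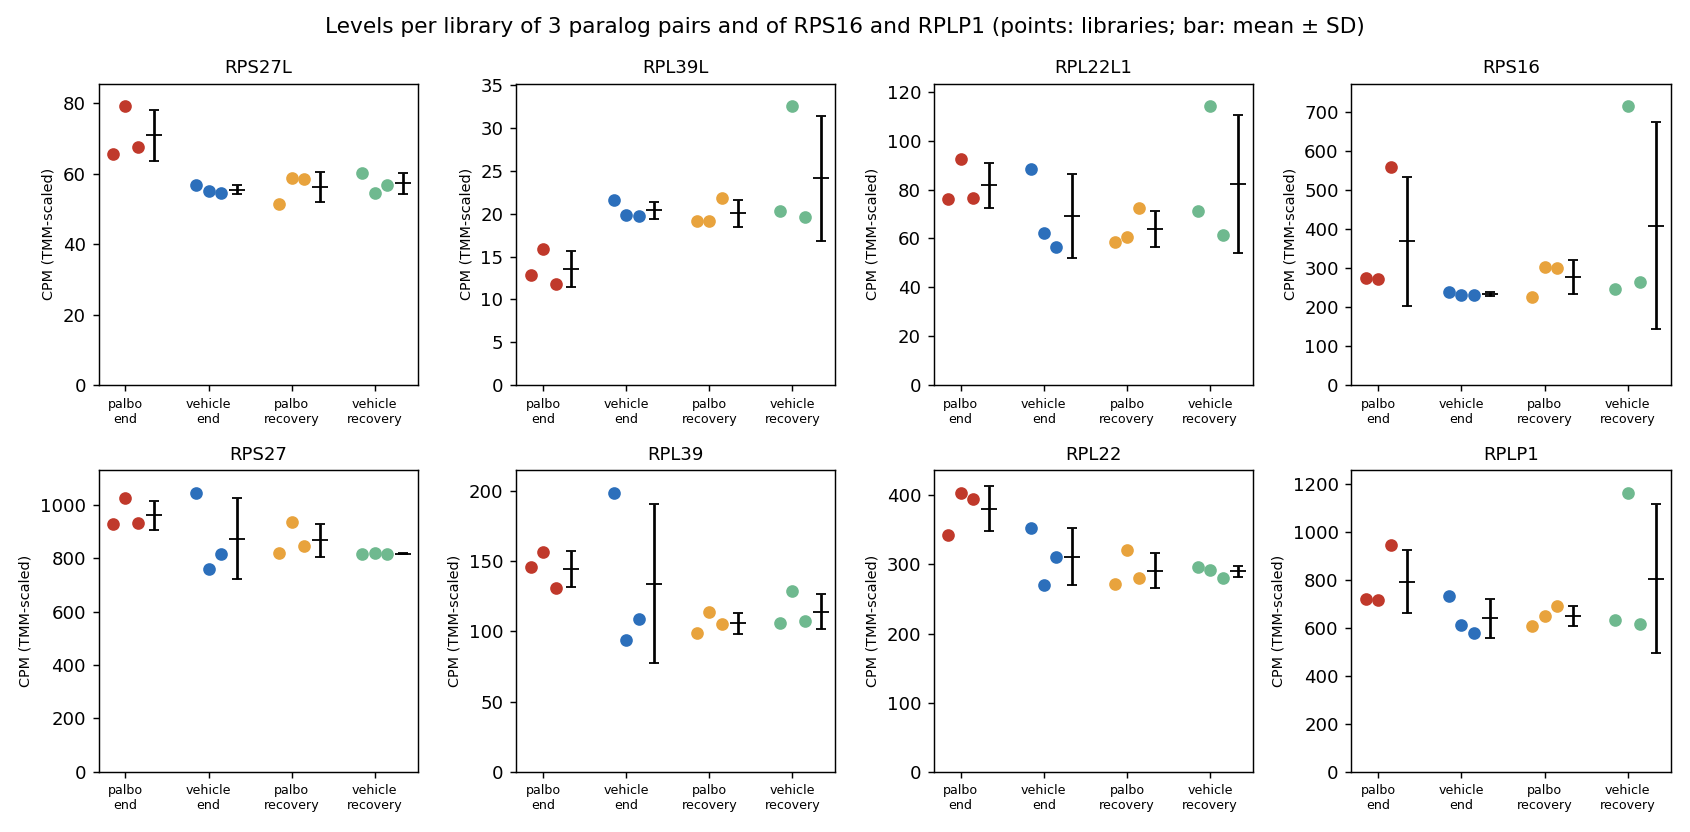
Scaled level in CPM of RPS27L and RPS27, RPL39L and RPL39, RPL22L1 and RPL22, and of RPS16 and RPLP1, in each library, with the mean and SD of each group. RPL39L is between 11.8 and 15.9 CPM in the palbociclib libraries at the end of treatment and at or above 19.1 CPM in all others, and vehicle recovery library 2 is highest for RPL39L, RPL22L1, RPS16 and RPLP1.

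Other genes of the ribosome and its production did not pass in this fit either. FAU, which encodes a ribosomal protein fused to a ubiquitin-like protein, and the ribosome-bound scaffold RACK1 were at 0.12 ± 0.12 and 0.13 ± 0.13 at the end of treatment (log2 fold change, SE). From there to recovery in palbociclib tumours they were at -0.04 ± 0.11 and -0.17 ± 0.13. Neither passed by edgeR in any comparison. None passed in any comparison among the 15 genes of RNA polymerase I, which transcribes ribosomal RNA, 9 proteins of the small nucleolar particles that modify it, 50 assembly factors, 35 translation factors, 28 mTORC1 pathway genes, 9 host transcripts of small nucleolar RNAs and 77 mitochondrial ribosomal proteins. At the end of treatment the medians of these lists, in this order, were -0.05, -0.05, -0.01, 0.07, 0.05, -0.01 and 0.00, against 0.14 for the members and 0.00 for all genes. From end of treatment to recovery in palbociclib tumours they were 0.08, 0.09, 0.04, -0.06, 0.04, -0.13 and 0.06, against -0.21 for the members and -0.01 for all genes.

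Within the mTORC1 list the stress-induced inhibitor SESN1, chosen after its values were seen, had 72.4, 71.0 and 65.4 CPM in palbociclib tumours, against 45.0, 46.4 and 42.7 CPM in vehicle tumours at the end of treatment. The groups did not overlap, and the log2 fold change of 0.64 ± 0.15 was just outside the threshold (SE, edgeR adjusted p = 0.0515). After recovery it was at 43.7, 38.9 and 55.7 CPM in palbociclib tumours, a change of -0.59 ± 0.15 from the end of treatment (edgeR adjusted p = 0.0538). It passed in 6 of 18 alternatives at the end of treatment, among them upper-quartile factors (edgeR adjusted p = 0.0204) and only the groups compared (edgeR adjusted p = 0.0013), and in 9 of 17 for the release. Over all genes these 2 named settings called 364 of 18628 and 689 of 17407 at the end of treatment. The 9 settings for the release called from 315 of 19330 to 1617 of 17563 genes, against 526 of 18628 in the main fit. The related gene SESN3 was at 0.61 ± 0.19 and -0.59 ± 0.19 (SE, edgeR adjusted p = 0.185 and 0.152). It passed in 3 of the 18 and 5 of the 17 alternatives. Over all genes the 3 settings called 753 of 38457, 689 of 17407 and 748 of 19343, against 343 of 18628 in the main fit. The 5 settings called from 487 of 18628 to 1617 of 17563 genes.

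**Figure D5:**
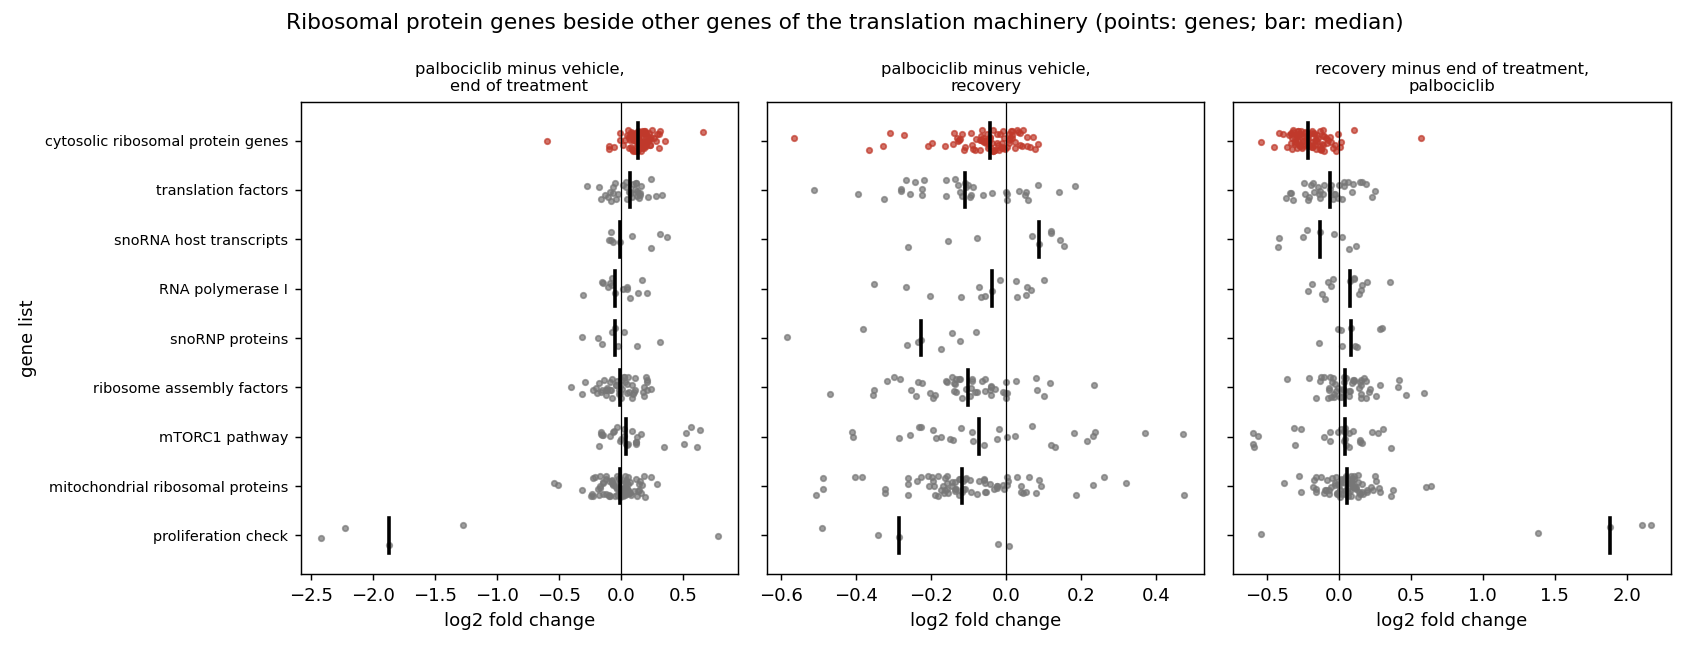
Log2 fold change of each gene in the ribosomal protein set and in 8 other gene lists, with the median of each, for palbociclib minus vehicle at both stages and for recovery minus end of treatment in palbociclib tumours. The ribosomal protein genes have medians of 0.14, -0.04 and -0.21, while the proliferation genes run from -2.42 (MKI67) to 0.79 (CCND1) at the end of treatment.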

How the data were processed

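RNA of 12 tumours was sequenced from TruSeq libraries after column extraction, per the labels' protocols. Each deposited file holds raw counts by Ensembl identifier for human and mouse genes together. Among tools, CASAVA 1.8, cutadapt, STAR and edgeR appear in the submitters' processing notes, and among builds GRCh38 and GRCm38. The counter, its strand setting and its treatment of reads that match several genes or both genomes were not given in the sources used here, so reads shared with pseudogenes, overlapping genes or mouse copies are uncertain. In each file 4 rows that name no gene held 37.0% to 69.1% of all counts and were left out, as were 713 repeated rows.

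Human genes were analysed in R 4.3.3 with edgeR 4.0.16 on human totals: filterByExpr (minimum count 10, minimum total 15), TMM scaling, and 1 robust quasi-likelihood fit of all 12 libraries with 4 group means, Benjamini-Hochberg adjusted over 18628 genes, with a threshold of 0.05. The biological coefficient of variation was 0.18. The SE is the log2 fold change divided by the square root of its F statistic, and 95% intervals use it with the fit's degrees of freedom. Levels are TMM-scaled CPM. Levels per kilobase use the median exonic length of principal transcripts in GENCODE 29. Paralog ratios used a pseudocount of 0.5. The fit was tested on simulated counts. Alternatives used DESeq2 1.42.0 and limma 3.58.1 (voom), other scaling, filters, covariates and left-out libraries.

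Named genes were the 3 highest and 3 lowest members per comparison, the 5 most and 5 least abundant, paralog pairs, and a fixed set with known roles; RPL14, RPL34, SESN1 and SESN3 were added after their values were seen. Fold changes of the fixed set are given for the end of treatment and the release from palbociclib only. The members, lists and tests were chosen with earlier results of these data known. Some genes of the rule are not reported here, though sums, medians and counts include them. Replicate numbers follow accession order and pair no samples.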

Additional observations from a re-analysis of the deposited data

How the results depend on the processing

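No member passed in any comparison as reported, and few did under the alternatives. Without a low-count filter RPS16 passed at the end of treatment, after recovery, in the stage difference and over time in vehicle tumours (1 member each). Of all 38457 genes 753, 794, 320 and 1124 passed there, in this order. At the end of treatment 1 member, RPL39L, passed with the unnamed-row share as a covariate and 1, RPL39L, with only the groups compared. Over all genes these fits called 552 of 18628 and 689 of 17407. With single libraries left out the count of members ran from 0 to 2 at the end of treatment. The 2 were RPL39L and RPS27L without vehicle recovery library 2, where 748 of 19343 genes passed. For the release 1 member, RPL14, passed with upper-quartile factors, where 487 of 18628 genes passed. With only the groups compared 8 passed (RPL14, RPL22, RPL29, RPL3, RPL34, RPL39 and RPS24 lower, RPL39L higher), where 1617 of 17563 genes passed. With single libraries left out 0 to 4 passed, the 4 being without vehicle recovery library 2, where 1425 of 19343 genes passed. The median of the members at the end of treatment was -0.056 with vehicle libraries 2 and 3 left out, 0.038 with the unnamed-row covariate, and 0.094 to 0.27 with single libraries left out. In the stage difference it was 0.017 with the unnamed-row covariate and 0.027 with those libraries left out, and -0.31 to -0.10 with single libraries left out, and over time in vehicle tumours -0.22 and -0.21 under the same settings and -0.093 to 0.12 with single libraries left out. After recovery it ran from -0.09 to 0.05 over 16 alternatives. The difference in summed share at the end of treatment was 0.529 to 1.42 percentage points with other denominators, other members or single libraries left out. With vehicle libraries 2 and 3 left out together, an alternative chosen after seeing the data, it turned to -0.191, and over time in vehicle tumours it was -1.36, against -0.283 with all libraries. After recovery it ran from -0.0733 to 0.369. The number of all genes called ranged from 95 to 753 at the end of treatment, 0 to 794 after recovery, 4 to 320 in the stage difference, 205 to 1617 for the release and 0 to 1124 over time in vehicle tumours. Of the other lists, 8 mTORC1 pathway genes, 3 translation factors, 2 assembly factors, 2 proteins of the small nucleolar particles, 2 small nucleolar host transcripts and 8 of the immune, endothelial and stromal genes passed in at least 1 alternative of at least 1 comparison. So did 5 markers of the line and 5 proliferation genes. The share of all genes that did so was not computed, so these counts have no background. A single setting called up to 1617 of 17563 genes. Why these values moved was not tested. No paired analysis was possible because the labels give no replicate numbers shared across groups.

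Direction changed in 320 of 3745 refitted fold changes of named genes (40 at the end of treatment, 95 after recovery, 54 in the stage difference, 19 for the release and 112 over time in vehicle tumours). With vehicle end-of-treatment libraries 2 and 3 left out the value was at the end of treatment -0.030 for FAU, -0.079 for RACK1, -0.13 for RPL10, -0.011 for RPL11, -0.055 for RPL12, -0.061 for RPL13A, -0.12 for RPL22L1, -0.46 for RPL39, -0.021 for RPL5, -0.044 for RPL7, -0.047 for RPL7L1, -0.20 for RPLP0, -0.025 for RPS18, -0.21 for RPS19, -0.17 for RPS23, -0.12 for RPS27, -0.11 for RPS3, and -0.17 for RPSA. With the unnamed-row share as a covariate the value was at the end of treatment -0.035 for RPL10, -0.065 for RPL22L1, -0.093 for RPL39, -0.037 for RPL7L1, -0.063 for RPLP0, -0.039 for RPS19, -0.089 for RPS23, -0.042 for RPS3, and -0.078 for RPSA, and over time in vehicle tumours -0.078 for RPL28, -0.23 for RPLP1 and -0.037 for RPS16. With upper-quartile factors the value was at the end of treatment 0.025 for RPL17, and for the release -0.057 for RPL17 and -0.0495 for RPS15, and over time in vehicle tumours -0.07 for MKI67. Without a low-count filter the value was at the end of treatment 0.0051 for RPL17, and for the release 0.015 for RPL36AL and 0.0031 for RPSA. With the mouse share as a covariate the value was at the end of treatment 0.032 for RPL17, and for the release 0.0083 for RPSA. With DESeq2 size factors the value was in the stage difference -0.012 for RPL19. With the DESeq2 Wald test the value was in the stage difference -0.012 for RPL19. With limma-voom the value was in the stage difference -0.0041 for RPL19. Other changes of direction came with single libraries left out. At the end of treatment these ranges were -0.072 to 0.12 for RPL17, -0.19 to 0.045 for RPL26, -0.094 to 0.51 for RPL39, -0.011 to 0.22 for RPLP0, -0.083 to 0.14 for RPS23 and -0.015 to 0.18 for RPSA. After recovery these ranges were -0.015 to 0.12 for RPL31 and -0.83 to 0.11 for RPS16. In the stage difference these ranges were -0.15 to 0.084 for RPL19 and -0.076 to 0.17 for RPL26. For the release these ranges were -0.060 to 0.11 for RPL17, -0.036 to 0.027 for RPL36AL, -0.090 to 0.032 for RPLP0, -0.012 to 0.058 for RPS15, -0.59 to 0.019 for RPS16, and -0.11 to 0.0499 for RPSA. Over time in vehicle tumours these ranges were -0.076 to 0.22 for MKI67, -0.43 to 0.18 for RPL39 and -0.032 to 0.51 for RPLP1. Depth limits RPS10, RPL17 and RPL36A most, at 20 to 126 counts per library.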
